A study of Mus musculus with 4 samples.

Results

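The GABA-A receptor subunits examined were 7 genes, chosen by symbol from the gene list of the deposited tables: the alpha subunits Gabra2, Gabra3, Gabra4 and Gabra5, the beta subunits Gabrb1 and Gabrb2, and the delta subunit Gabrd. All 7 were found among the 19465 genes measured. They were measured by Visium spatial transcriptomics in 4 coronal brain sections of formalin-fixed, paraffin-embedded tissue from wild-type C57BL/6J male pups at postnatal day 21. The mothers of the MF pups (2 sections) ate a diet with 2 mg/kg folic acid, and those of the HF pups (2 sections) a diet with 20 mg/kg, from before mating through pregnancy and lactation; no other treatment or allele separated the groups. Each section is a separate sample, and the litter of each pup is not given in the sources used here. With 2 sections per diet, the p-values of HF against MF measure only the spread between these sections, which may be partly technical. Tests that compare areas, or the diet difference over areas, take section out as a block. Their p-values measure the spread then left over the areas of the same 4 sections.

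The GABA-A receptor is a pentameric chloride channel opened by GABA, the main inhibitory transmitter of the adult brain, and its subunits set where it sits and how it responds. Alpha and beta subunits form the GABA binding site and a gamma subunit is common in receptors at the synapse, whereas receptors with a delta subunit lie outside the synapse and carry a steady, tonic current. In the forebrain the delta subunit is known to pair mainly with alpha4, in thalamic relay neurons and dentate granule cells among others, and alpha5 is best known from receptors of hippocampal pyramidal cells.

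The 7 genes lie on 5 chromosomes, with positions given here on GRCm38. Gabra2 (chr5:70957597-71095849, minus strand), Gabra4 (chr5:71569749-71658308, minus strand) and Gabrb1 (chr5:71658113-72149037, plus strand) form a cluster on chromosome 5. The Gabra4 and Gabrb1 gene models overlap by 196 bases on opposite strands, and their RefSeq starts are 387 bases apart; each probe pair of the assay hybridises to the RNA of 1 strand. Gabrb2 is at chr11:42419757-42629028 (plus strand), Gabra5 at chr7:57407672-57510059 (minus strand), Gabra3 at chrX:72432681-72656848 (minus strand) and Gabrd at chr4:155384980-155398112 (minus strand).

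Promoter windows (250 bases before to 50 bases after the start) were read from RefSeq on GRCm38.p6 and were found for 6 of the 7 genes, 10 windows in all, with none used for Gabrd. The windows printed are those of Gabra4 and Gabrb1, which start beside each other, those of Gabrb2 and Gabra2, whose levels over areas are set against theirs below, and that of Gabra3, which has 0 CpG and the TATA letters. The capitals mark GGGCGG (the SP1 letters) and TATAAA (the TATA letters) on either strand.
Gabra4, chr5:71658259-71658558, minus strand: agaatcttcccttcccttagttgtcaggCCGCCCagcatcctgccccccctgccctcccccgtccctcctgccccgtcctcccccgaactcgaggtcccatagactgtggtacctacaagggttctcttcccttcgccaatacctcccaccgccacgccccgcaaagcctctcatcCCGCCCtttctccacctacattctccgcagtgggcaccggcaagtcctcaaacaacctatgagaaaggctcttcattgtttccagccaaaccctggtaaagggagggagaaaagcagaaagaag
Gabrb1, chr5:71657671-71657970, plus strand: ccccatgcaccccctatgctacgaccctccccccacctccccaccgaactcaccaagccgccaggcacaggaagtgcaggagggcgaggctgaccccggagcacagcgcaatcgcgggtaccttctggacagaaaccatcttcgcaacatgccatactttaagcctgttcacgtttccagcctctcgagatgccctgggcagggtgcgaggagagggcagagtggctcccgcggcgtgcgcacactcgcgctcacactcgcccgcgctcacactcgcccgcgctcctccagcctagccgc
Gabrb2, chr11:42420190-42420489, plus strand: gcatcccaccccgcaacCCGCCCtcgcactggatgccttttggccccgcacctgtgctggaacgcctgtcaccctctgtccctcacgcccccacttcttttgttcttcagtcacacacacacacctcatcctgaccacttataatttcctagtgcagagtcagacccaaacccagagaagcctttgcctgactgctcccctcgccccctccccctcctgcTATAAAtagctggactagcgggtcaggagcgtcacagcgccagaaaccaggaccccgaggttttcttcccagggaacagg
Gabra2, chr5:71095800-71096099, minus strand: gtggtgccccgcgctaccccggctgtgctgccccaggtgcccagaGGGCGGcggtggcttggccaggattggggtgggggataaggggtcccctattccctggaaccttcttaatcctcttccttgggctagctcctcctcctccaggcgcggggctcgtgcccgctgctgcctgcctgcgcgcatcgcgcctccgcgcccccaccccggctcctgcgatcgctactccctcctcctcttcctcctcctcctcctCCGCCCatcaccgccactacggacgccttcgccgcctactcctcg
Gabra3, chrX:72656870-72657169, minus strand: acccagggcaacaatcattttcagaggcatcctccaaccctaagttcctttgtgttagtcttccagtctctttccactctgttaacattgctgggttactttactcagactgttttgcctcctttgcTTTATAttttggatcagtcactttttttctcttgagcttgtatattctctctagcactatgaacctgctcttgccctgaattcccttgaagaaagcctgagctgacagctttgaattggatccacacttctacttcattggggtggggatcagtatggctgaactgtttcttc

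The Gabra2 window and the printed Gabrb1 window held 25 CpG each, the second Gabrb1 window 9 and the Gabra4 window 12, against a median of 7 over all 32851 windows. Both Gabra3 windows, which overlap, held 0 CpG and the same single TATA match. GGGCGG was present in 3 of the 10 windows (Gabra2, Gabra4 and the first Gabrb2 window) and in 35.7% of all windows, and TATAAA in 3 of the 10 (the first of Gabrb2 and both of Gabra3, where 1 match is counted in each of the overlapping windows) and in 13.6% of all. The letters TGACGTCA (CRE, in 1.79% of all windows), GCGTGGGCG (EGR, 0.612%, overlapping the SP1 letters by up to 5 bases) and CACGTG (E-box, 7.15%) were searched on both strands and were in none of the 10. A match is a string of letters in this window, not a shown site.

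The 4 sections held 34983708 to 90098381 unique molecular identifiers (UMIs, each standing for 1 captured probe molecule) in 3202 to 3602 spots, of which 13452 of 13470 were kept. Section MF replicate 1 was the deepest and HF replicate 1 the shallowest. Spots, which hold several cells each, were clustered without the 7 subunit genes or the other GABA genes, and the 30 clusters were merged into 25 areas, named by markers where at least 3 stood among the leading genes and otherwise by their 2 leading genes. The Neurod6 and Homer3 spots held too few CA2-3 markers for that name. Layer 1 held 305 spots in HF replicate 1 and 115 to 143 in the others. Ependyma held 23, 32, 30 and 15 spots in MF replicates 1 and 2 and HF replicates 1 and 2. With finer clusters it held 8, 5, 8 and 12 in the same order and was not tested. The sum of 9 oligodendrocyte markers was 25912 and 27054 CPM (counts scaled to 1e6 UMIs per section or area) for MF and 21495 and 23068 for HF. Because a spot is a small piece of tissue, fewer cells of a type and less RNA per cell cannot be told apart in any result here.

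The subunits differed in the areas where they were highest: Gabra5 was highest in the hippocampus, Gabra4, Gabrd and Gabrb2 were highest in the relay thalamus, and Gabra2, Gabra3 and Gabrb1 had their highest means in Lmo3 and Slc30a3 spots, olfactory cortex and amygdala, and Calb2 and Igkc spots, in that order of genes. Each area was tested against the mean of the other areas with section as a block (edgeR quasi-likelihood test, called at adjusted p under 0.05 and at least 1.2-fold). Of 175 tests of a member in an area 114 were called, 62 higher and 52 lower, while 29.9% of all such tests over all genes were called (16% higher, 13.9% lower). Since the areas were drawn from other genes of the same spots, these tests say how steady a level was over sections within areas set by the tissue's own expression. Probes differ in efficiency between genes, so levels are compared between areas of 1 gene and not between genes.

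**Figure D1:**
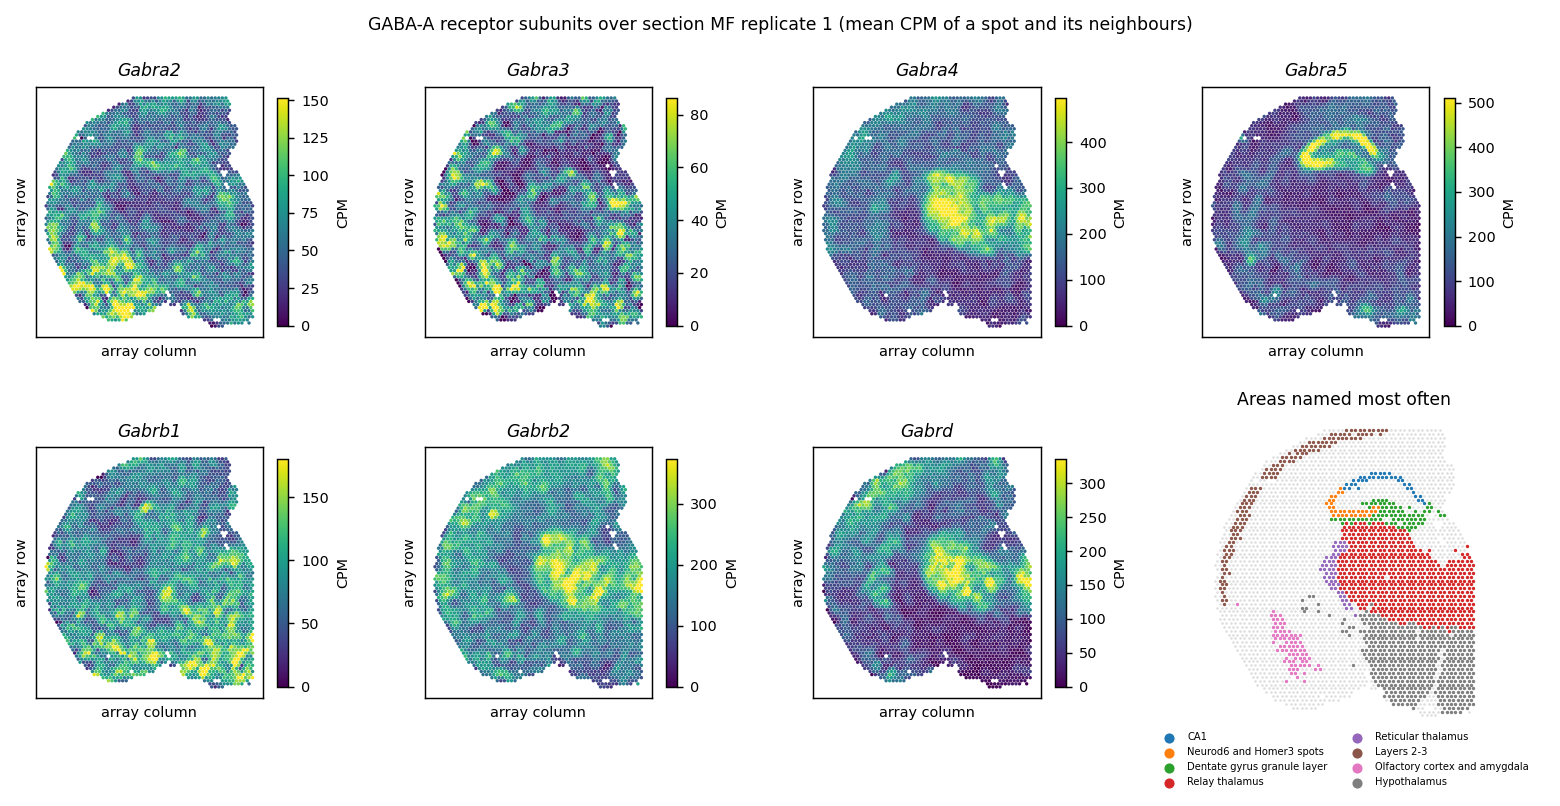
Level of each subunit gene over the spots of section MF replicate 1, in CPM averaged over a spot and its neighbours, plotted by array column and row with a capped colour scale for each gene; the last panel shows 8 of the areas. Gabra5 is bright along the hippocampal cell layers, and Gabra4 and Gabrd are bright in the thalamus and the cortex.

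Gabra5 encodes the alpha5 subunit. In CA1 it measured 567 and 764 CPM under MF and 649 and 645 CPM under HF. In Neurod6 and Homer3 spots it measured 531, 595, 555 and 610 CPM in MF replicates 1 and 2 and HF replicates 1 and 2. All 4 sections thus placed these 2 areas far above the rest, by 2.53 (SE 0.07, adjusted p = 3.11e-61) and 2.41 (SE 0.07, adjusted p = 1.55e-59) on the log2 scale against the mean of the other areas, and the 2 areas were not told apart (log2 difference 0.12, adjusted p = 0.426). The dentate gyrus granule layer came next at 336 ± 56 CPM (SD, n = 4), lower than the Neurod6 and Homer3 spots by 1.05 log2 units (adjusted p = 2.34e-19), and the hippocampal neuropil followed at 213 ± 34.2 CPM, lower again by 0.59 (adjusted p = 6.27e-08). Outside the hippocampus, Ccn2 and Nxph3 spots (208 ± 26.6 CPM) and olfactory cortex and amygdala (171 ± 36.5 CPM) were also called higher. At the other end stood the reticular thalamus (47.6 ± 7.16 CPM, log2 -1.47, adjusted p = 3.79e-21) and the relay thalamus (61.5 ± 7.55 CPM, log2 -1.12, adjusted p = 6.66e-30). From CA1 to the reticular thalamus the mean level spanned 13.8-fold, and in 7 areas Gabra5 was called higher and in 11 lower.

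Gabra4, which encodes the alpha4 subunit, was led by the relay thalamus in every section. There it measured 366 and 399 CPM under MF and 409 and 388 CPM under HF, 1.65 log2 units above the mean of the other areas (SE 0.05, adjusted p = 1.74e-57). The Calb2 and Igkc spots, next in order, spread more, at 315, 200, 187 and 273 CPM, and were 0.68 lower (adjusted p = 3.74e-09). From there the order ran through layers 2-3 (213 ± 7.75 CPM), layer 4 (199 ± 19 CPM), striatum (185 ± 7.11 CPM), dentate gyrus granule layer (173 ± 11.2 CPM) and Tshz2 and Npnt spots (171 ± 18.2 CPM), all called above the mean of the other areas, and no neighbours in that stretch were told apart. Gabra4 was lowest in ependyma (57.5 ± 21.2 CPM, log2 -1.54, adjusted p = 5.66e-19) and low in hypothalamus (76.7 ± 7.36 CPM, log2 -0.95, adjusted p = 3.93e-25). Relay and reticular thalamus, which lie side by side, stood far apart for this gene, with the reticular thalamus at 90.1 ± 20.7 CPM and called lower (log2 -0.61, adjusted p = 9.65e-08). The 9 oligodendrocyte markers summed to 49147 to 65871 CPM in the reticular thalamus and to 24045 to 30708 CPM in the relay thalamus, and their part in the levels of the subunits in the reticular thalamus was not tested.

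Gabra3, which encodes the alpha3 subunit, was low in the hippocampal areas where Gabra5 was highest. It was highest in olfactory cortex and amygdala, at 59.2 and 54.7 CPM in the MF and 62.1 and 54.5 CPM in the HF sections (log2 1.24, SE 0.13, adjusted p = 1.23e-14). The reticular thalamus followed at 47.5 ± 7.2 CPM (log2 0.99, adjusted p = 9.22e-12), the only 1 of the 7 genes to be called higher there. It was called lower in each of the hippocampal cell areas: 11.5 ± 2.41 CPM in the dentate gyrus granule layer (log2 -1.24), 10.7 ± 3.8 CPM in CA1 (log2 -1.03) and 8.49 ± 4.8 CPM in Neurod6 and Homer3 spots (log2 -1.37). The counts there were small, as few as 2 UMIs in 1 section, and in the choroid plexus 2 sections had 0 UMIs; with all spots thinned to 5000 UMIs these 3 calls were lost (adjusted p = 1 in each, with no standard error from the fit), while those of olfactory cortex and amygdala and of the reticular thalamus held. Over all settings the log2 value ranged from -1.29 to -0.92 in the dentate gyrus granule layer and from -1.57 to -1.18 in Neurod6 and Homer3 spots. In CA1 it ranged more widely, from -1.38 to -0.37. Among neighbours in the order of Gabra3, only the last step, from Neurod6 and Homer3 spots to choroid plexus, was called.

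Gabra2, which encodes the alpha2 subunit, was highest in Lmo3 and Slc30a3 spots. These measured 110 and 106 CPM in the MF and 151 and 74.1 CPM in the HF sections, so that the highest and the lowest value both came from HF. Olfactory cortex and amygdala (105 ± 11 CPM) and Neurod6 and Homer3 spots (95.6 ± 13.9 CPM) were close behind; these 3 areas were each 0.92 log2 units above the mean of the others (adjusted p = 4.38e-20, 3.2e-14 and 1.58e-14) and were not told apart. For Neurod6 and Homer3 spots the call was lost after thinning (log2 0.60, adjusted p = 0.0845). CA1 (86 ± 7.71 CPM) and the dentate gyrus granule layer (85.1 ± 4.93 CPM) were called higher too. The reticular thalamus was the lowest area after the choroid plexus (35.4 ± 5.02 CPM, log2 -0.78, adjusted p = 2.49e-08), and without the choroid plexus the mean level spanned 3.12-fold.

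The beta subunits Gabrb2 and Gabrb1 differed in the areas where they were highest, while without the choroid plexus their mean levels spanned like ranges, 2.99-fold and 2.98-fold. Gabrb2 measured 278 and 291 CPM in the MF and 304 and 267 CPM in the HF sections of the relay thalamus (log2 0.94, SE 0.04, adjusted p = 2.94e-38). Tshz2 and Npnt spots (255 ± 21.7 CPM), layers 2-3 (239 ± 14.2 CPM) and layer 4 (232 ± 10.2 CPM) followed, all called higher, with no step between them past the threshold. It was low in the reticular thalamus (95.3 ± 7.33 CPM, log2 -0.67, adjusted p = 1.63e-11) and in ependyma (98.1 ± 14.2 CPM, log2 -0.92, adjusted p = 3.28e-14). Gabrb1 was highest in Calb2 and Igkc spots, with 134 and 159 CPM in the MF and 127 and 125 CPM in the HF sections (log2 0.75, adjusted p = 1.32e-12). It was called higher in 10 areas, among them Neurod6 and Homer3 spots (log2 0.68), Ccn2 and Nxph3 spots (0.46), hypothalamus (0.41; 116 ± 5.63 CPM), dentate gyrus granule layer (0.34), relay thalamus (0.32) and ependyma (0.29; 113 ± 5.86 CPM). The ependyma call was lost without MF replicate 2 (log2 0.25, adjusted p = 0.0553), and that of the relay thalamus fell under 1.2-fold after thinning (log2 0.26). The reticular thalamus was again low (45.7 ± 8.73 CPM, log2 -0.81, adjusted p = 1.2e-12).

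Gabrd, which encodes the delta subunit of extrasynaptic receptors, was highest in the relay thalamus, at 222 and 235 CPM in the MF and 237 and 165 CPM in the HF sections (log2 1.66, SE 0.06, adjusted p = 1.71e-48). Layers 2-3 (177 ± 16.4 CPM, log2 1.40), striatum (170 ± 17.2 CPM, log2 1.28) and layer 4 (167 ± 28.2 CPM, log2 1.32) came next, and the step from layer 4 to Tshz2 and Npnt spots (133 ± 19.8 CPM) was the first that was called (log2 0.40, adjusted p = 0.0312). In the dentate gyrus granule layer it measured 83.1 ± 16.3 CPM and was not called against the other areas (log2 0.16, adjusted p = 0.186). In hypothalamus (28.1 ± 3.77 CPM, log2 -1.55, adjusted p = 9.76e-30), Neurod6 and Homer3 spots (27.2 ± 11.4 CPM, log2 -1.17, adjusted p = 6.1e-09) and ependyma (22.5 ± 16.7 CPM, log2 -2.19, adjusted p = 7.83e-16) it was low, with as few as 4 UMIs in an ependyma section.

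Over all 7 genes, 17 of 168 steps between neighbouring areas in the order of levels were called. The same pairs of areas were called in 31.7% of tests over all genes, but the areas are not in the order of those genes' levels, so nothing is read from the lower share of the members. Ordered areas lie close by construction, and most neighbours in the orders above were not told apart, the top areas of Gabra2 and Gabra5 among them.

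**Figure D2:**
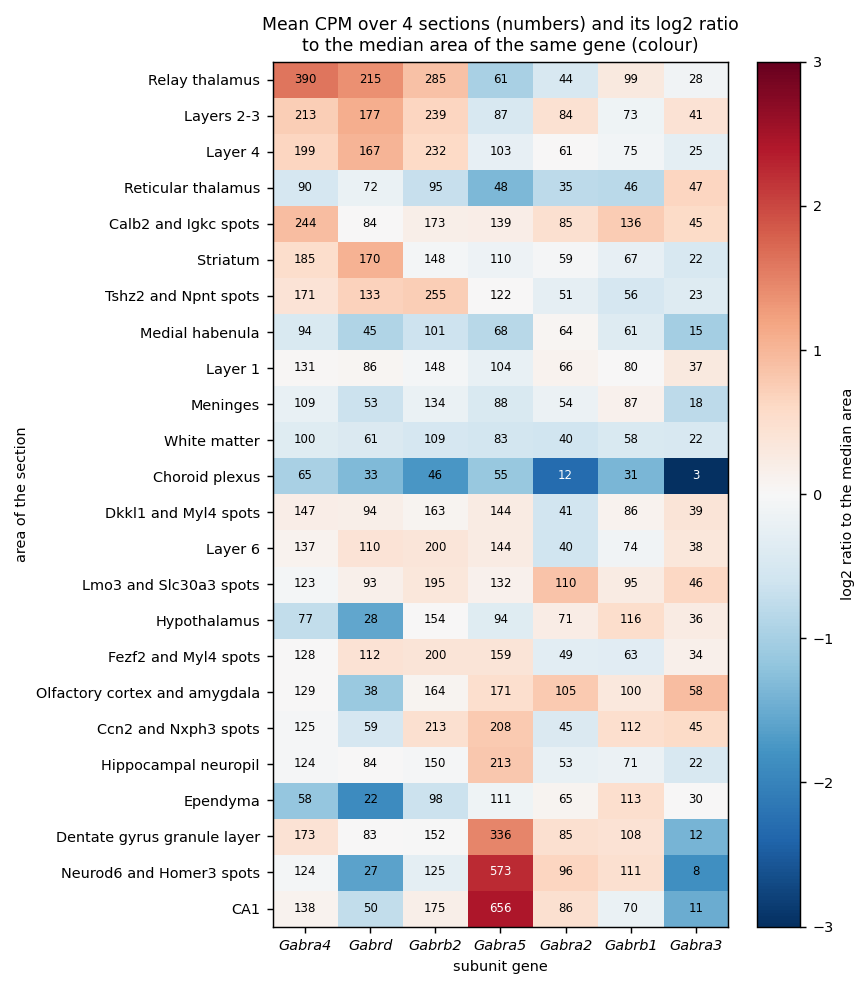
Mean CPM over the 4 sections (numbers) of the 7 subunit genes (columns) in 24 of the 25 areas (rows), coloured by the log2 ratio to the median area of the same gene. Relay thalamus, with 390 CPM of Gabra4 and 61 of Gabra5, stands at the top and CA1, with 138 and 656, at the bottom; choroid plexus rests on 10 to 13 spots per section.

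The alpha make-up was read as each gene's share of the UMIs of the 4 alpha genes, which can be compared between areas but not between genes. Over whole sections Gabra4 made up 45.7% ± 1.51 of these UMIs, Gabra5 31.8% ± 2.74, Gabra2 15.1% ± 0.86 and Gabra3 7.44% ± 0.65 (SD, n = 4). Gabra5 rose to 73.5% ± 2.14 in CA1 and 71.5% ± 2.19 in Neurod6 and Homer3 spots, Gabra4 to 74.5% ± 1.57 in the relay thalamus, and Gabra3 to 21.6% ± 0.57 in the reticular thalamus. The log2 ratio of Gabra5 to Gabra4 was 2.24 ± 0.22 in CA1 and -2.67 ± 0.15 in the relay thalamus. The difference of 4.91 ± 0.27 is a 30.2-fold shift between the 2 areas and was seen in all 4 sections, from 4.66 to 5.22. The log2 ratio of Gabra3 to Gabra2 was 3.96 ± 0.57 higher in the reticular thalamus than in Neurod6 and Homer3 spots, a 15.6-fold shift, and 3.11 after all spots were thinned to 5000 UMIs.

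The beta pair shifted less. The log2 ratio of Gabrb1 to Gabrb2 was highest in ependyma (0.21 ± 0.26), which finer clusters cut to 5 to 12 spots a section. It was lowest in Tshz2 and Npnt spots (-2.17 ± 0.19). Between Neurod6 and Homer3 spots and Tshz2 and Npnt spots the difference was 2.00 ± 0.09, with the same direction in the 4 sections. Gabrd against Gabra4, the known partners, was highest in striatum (-0.13 ± 0.20), followed by Fezf2 and Myl4 spots (-0.22 ± 0.30), and lowest in Neurod6 and Homer3 spots (-2.25 ± 0.70), a shift of 2.13 ± 0.53 or 4.37-fold. After thinning that shift was 1.71, and olfactory cortex and amygdala were lowest (-1.98). The relay thalamus, highest for both genes, was thus not where Gabrd was highest relative to Gabra4.

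**Figure D3:**
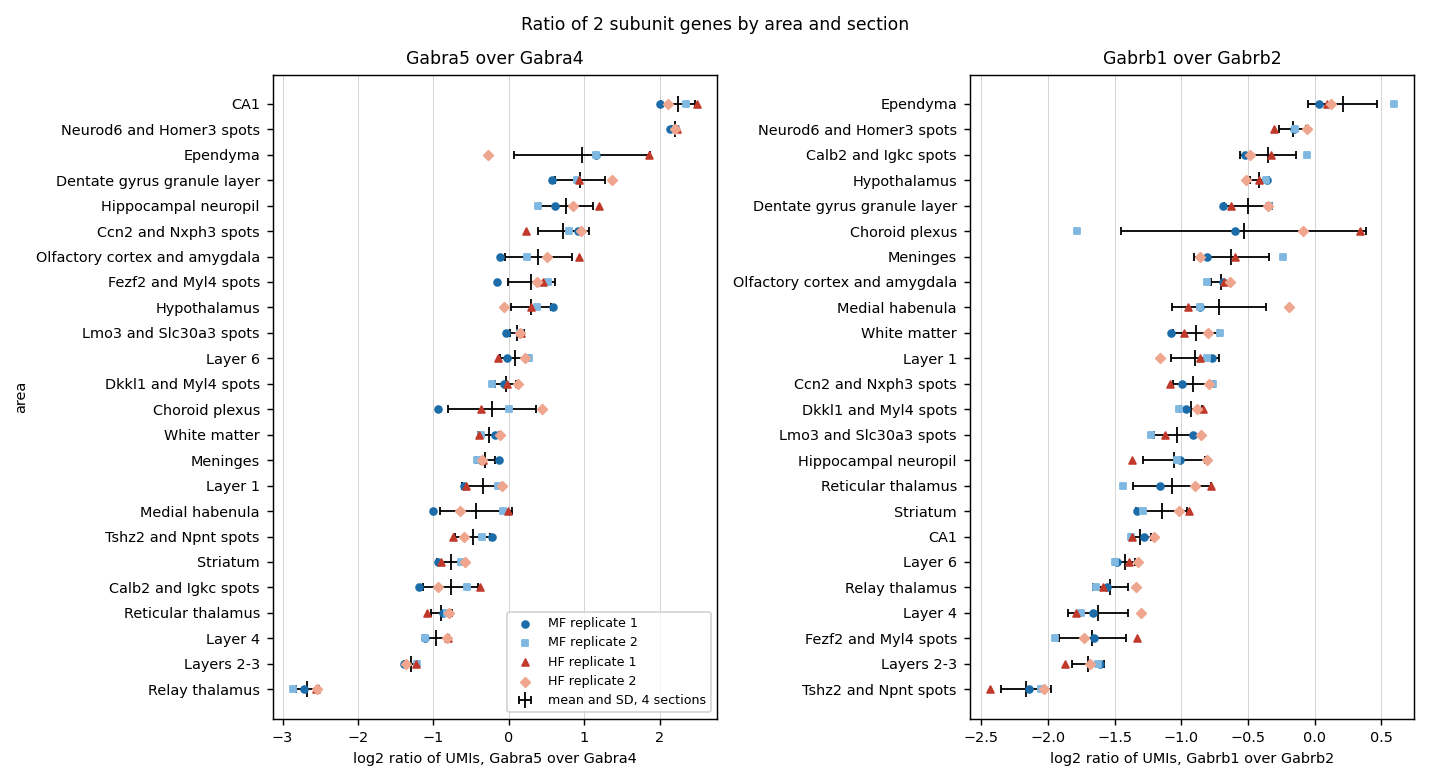
Log2 ratio of UMIs of Gabra5 over Gabra4 (left) and Gabrb1 over Gabrb2 (right) in 24 of the 25 areas, with 1 point per section and the mean and SD over the 4 sections. CA1 (mean 2.24) and relay thalamus (mean -2.67) are the ends of the left panel, and ependyma (0.21) and Tshz2 and Npnt spots (-2.17) those of the right.

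Across the 25 areas 2 sets of members had like patterns. Mean levels of Gabra4 and Gabrd had a Pearson r of 0.80, Gabra4 and Gabrb2 0.76 and Gabrb2 and Gabrd 0.66. Gabra2 and Gabrb1 had an r of 0.72. The adjacent genes Gabra4 and Gabrb1, whose promoter windows are printed above, had only 0.26, and Gabra3 and Gabra5 were at -0.20. These are descriptions over areas of the same 4 libraries. Among 12329 genes the pattern most like that of Gabra5 belonged to Cacng8 (r = 0.93), an AMPA receptor auxiliary subunit, with Dgkg and Capzb next (0.91 each). Gabra4 was most like Sptbn1 (0.88), a spectrin, then Kctd17 (0.85) and Lrrc7 (0.84), and Gabrd most like Hecw2 (0.83), Rgs4 (0.81) and Hlf (0.81). For Gabrb2 these were Cyp46a1 (0.91), the brain cholesterol hydroxylase, Adgrb1 (0.91) and Gucy1a2 (0.90), and for Gabrb1 Cdh2 (0.90), Caly (0.87) and Entpd6 (0.87). Nlgn3, a neuroligin of the synapse, was most like Gabra2 (0.89), with Nexmif (0.88) and Pop7 (0.88), and Cep170b most like Gabra3 (0.88), with Prkacb (0.87) and Atp8a2 (0.87). With coarser and finer clusters 14 and 17 of these 21 pairs were found again.

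Moran's I, the deposited score of how strongly a gene is structured over the spots, averaged 0.343 ± 0.064 for Gabra4, 0.341 ± 0.104 for Gabrd, 0.248 ± 0.041 for Gabra5 and 0.165 ± 0.029 for Gabrb2. It was 0.074 ± 0.018 for Gabra2, 0.071 ± 0.015 for Gabrb1 and 0.044 ± 0.021 for Gabra3, while the median gene of a section was at 0.0104 to 0.0166. Gabra4, Gabrd and Gabra5 were thus the most structured of the 7 by this score.

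Among other GABA-A subunit genes, Gabrg1, Gabrg3 and Gabrq were highest in ependyma. In these ependyma spots 3 hypothalamus markers also stood among the leading genes, and the 5 interneuron markers summed to 2582 and 2737 CPM in MF and 1706 and 1517 CPM in HF. Gabra6, Gabre, Gabrp, Gabrr1, Gabrr2 and Gabrr3 had 1 to 119 UMIs in all 4 sections together. In CA1, 7 of the 8 genes of GABA synthesis, transport and breakdown were called lower (median log2 -0.80) and 7 of 15 anchoring and trafficking genes higher, among them Shisa7, a GABA-A receptor auxiliary protein (280 ± 38.5 CPM, log2 1.60), when 20.9% of all genes were called lower and 19% higher there. Gabrg1 was low in CA1 (7.97 ± 2.58 CPM, log2 -1.50).

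The reticular thalamus, a nucleus of GABA neurons, was the reverse for the synthesis list, with 6 of 8 called higher and 1 lower (17% and 14.2% of all genes). In the relay thalamus both GABA-B receptor genes were called higher (17.9% of all genes), as was Slc6a11, the GAT3 GABA transporter (677 ± 56.7 CPM, log2 1.34), and Gad1, a GABA-synthesising enzyme, was low (20 ± 6.25 CPM, log2 -0.92). Calb2 and Igkc spots were low in Gad2 (74.2 ± 8.88 CPM, log2 -1.72) and in the vesicular transporter Slc32a1 (10.4 ± 4.69 CPM, log2 -1.59). Lmo3 and Slc30a3 spots were higher in Shisa7 (log2 0.82) and lower in the chloride importer Slc12a2 (log2 -0.78), and olfactory cortex and amygdala higher in Gabrg1 (log2 0.75) and lower in the steroid reductase Srd5a1 (log2 -0.77).

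HF was then compared with MF, which asks whether the maternal folic acid dose moved the subunits in the offspring brain. No member was called over the whole section: 5 of the 7 were above 0 and 2 below, with a median log2 difference of 0.03 (all genes 0.0020). The background was equally empty, 0% of 14971 genes called by edgeR, with 1020 genes but 0 members at an unadjusted p under 0.05, and 22 genes but 0 members called by DESeq2. With these 2 sections per diet a p above the threshold does not show that levels were alike, and the 95% intervals of the 7 differences reached from -0.60 to 0.34.

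Gabra5 was the only member whose groups did not overlap, with 121 and 122 CPM in MF and 126 and 140 CPM in HF (log2 0.11, 95% interval -0.09 to 0.32, adjusted p = 0.785); this is 14.3% of the members, and 39.4% of all genes did so. Leaving out HF replicate 2 brought the difference to 0.02 and leaving out HF replicate 1 to 0.20. Neither was called, the 0.20 only because it was under 1.2-fold. Gabrd measured 118 and 115 CPM in MF and 122 and 83.2 CPM in HF, where the second HF section alone was low (log2 -0.19, interval -0.60 to 0.21, adjusted p = 0.807). Gabra3 had the same shape, with 30.8 and 31.4 CPM in MF and 31.2 and 25.6 CPM in HF (log2 -0.14, interval -0.40 to 0.11, adjusted p = 0.786). Gabra4 (177, 185, 200 and 170 CPM in MF replicates 1 and 2 and HF replicates 1 and 2), Gabrb2 (184, 186, 209 and 173 CPM), Gabra2 (58.1, 59.2, 69.0 and 55.0 CPM) and Gabrb1 (83.1, 87.4, 95.1 and 87.0 CPM) were each highest in the first HF section. Their log2 differences were 0.02, 0.03, 0.07 and 0.09, with adjusted p = 0.965, 0.955, 0.906 and 0.810. In each of the 7 genes the 2 HF sections lay further apart than the 2 MF sections. All 9 oligodendrocyte markers were below 0 in HF (median log2 -0.23, 0 called). Within areas they were called lower in HF for 9 of 9 in layers 2-3 (median log2 -0.73), 6 in layer 4 (-0.53), 5 in Dkkl1 and Myl4 spots (-0.64), 5 in Neurod6 and Homer3 spots (-0.63), 1 in the dentate gyrus granule layer (-0.74) and 2 each in olfactory cortex and amygdala (-0.58), Ccn2 and Nxph3 spots (-0.54) and Tshz2 and Npnt spots (-0.53). Their part in the differences given here, over the section or in areas, was not tested.

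**Figure D4:**
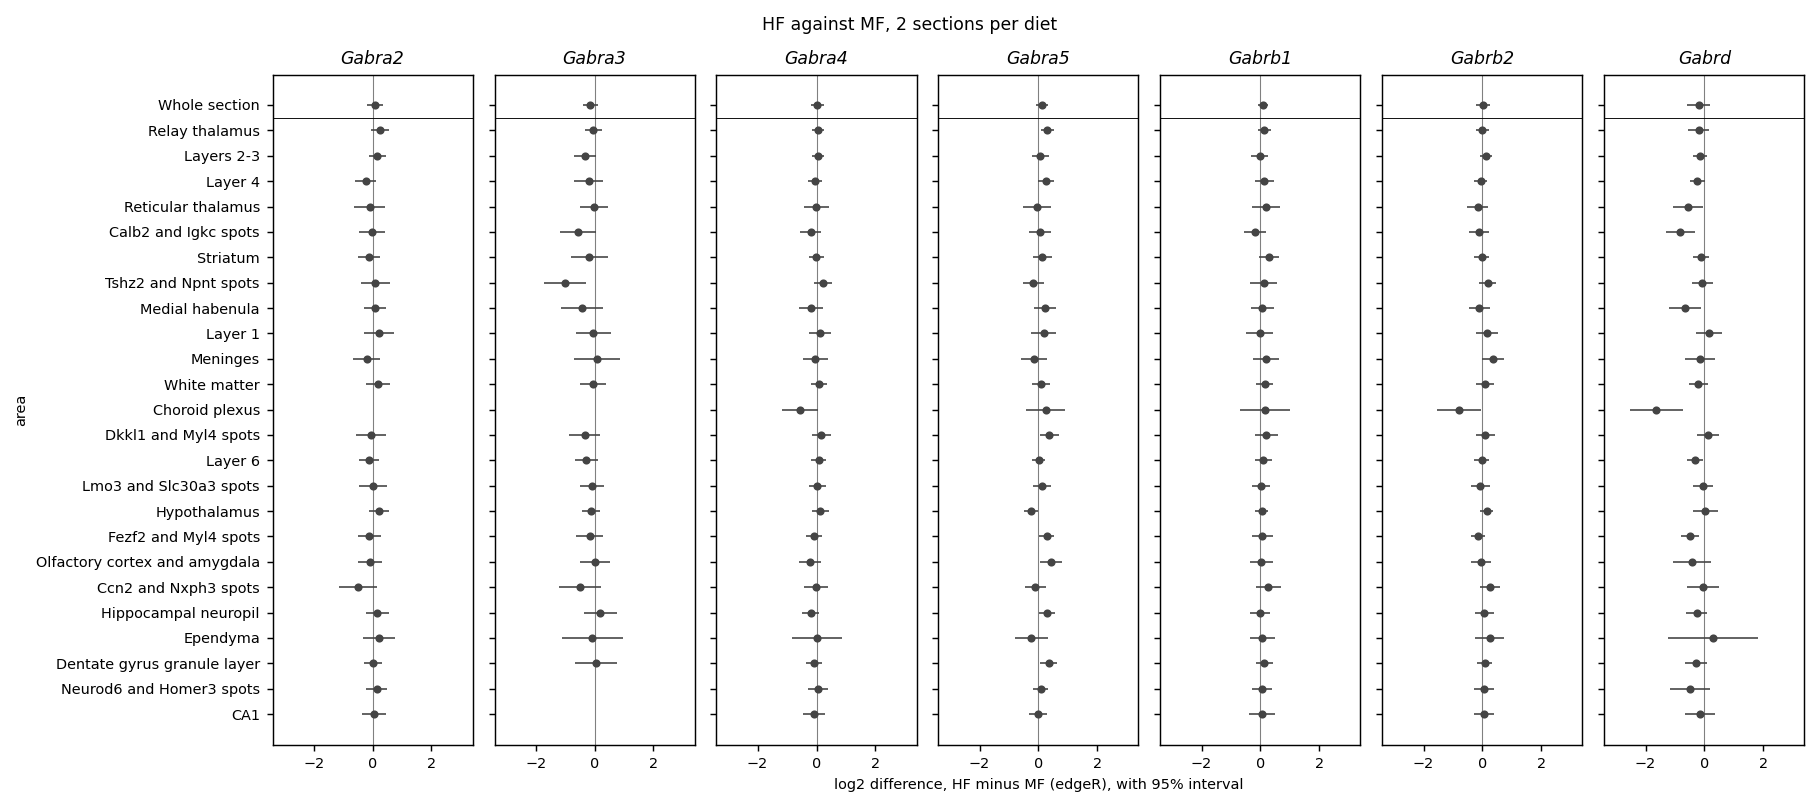
Log2 difference HF minus MF of each subunit gene over the whole section (top row) and in 24 of the 25 areas, with 95% intervals from edgeR. No interval belongs to a called test; most Gabrd points lie below 0.

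Within areas 0 of 171 tests of a member were called, and 0.0824% of all tests of a gene in an area were called. Of the 171, 15 were at an unadjusted p under 0.05. Nothing is read from that count, as its share over all genes is not given here. DESeq2 called 0, with 3 at an unadjusted p under 0.05. The groups did not overlap in 49 of 175 comparisons of a member in an area (28%), and in 34.8% of those of all genes. The lowest adjusted p was that of Gabrd in the choroid plexus, with 65.1 and 35.5 CPM in MF and 16.1 and 16.8 CPM in HF (log2 -1.63, SE 0.46, adjusted p = 0.131), on as few as 5 UMIs a section. In that area most marker lists lay below 0 as well: 3 of 3 tested excitatory (median log2 -0.44), 3 of 3 interneuron (-0.41), 9 of 9 oligodendrocyte (-0.43), 5 of 6 astrocyte (-0.32) and 5 of 5 microglia markers (-0.87), with 1 of 4 vessel markers (0.13) and 0 called in any list. Their part in the difference was not tested. Without MF replicate 2 it was called (log2 -1.86, adjusted p = 0.0294), as it was with library size alone as the scale (log2 -1.73, adjusted p = 0.0431).

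Gabrd lay below 0 in 21 of 25 areas with a median log2 difference of -0.21, and Gabra3 in 17 of 22; Gabrb1 lay above 0 in 21 of 25 and Gabra5 in 18 of 25. Areas of 1 section share its library, so these counts are not independent. HF replicate 2 was the lowest of the 4 sections in 16 of 25 areas for Gabrd and in 17 of 25 for Gabra3. Without it Gabrd was still below 0, and not called, in the choroid plexus (log2 -1.66), Calb2 and Igkc spots (-0.55), medial habenula (-0.40) and Fezf2 and Myl4 spots (-0.25). In the relay thalamus, whose 3 clusters are filled differently by the sections, HF replicate 2 was lowest in each cluster, for example at 133 CPM against 197, 211 and 209 CPM in the cluster led by Grid2ip.

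Leaving out 1 HF section changed these calls. Without HF replicate 1, Gabrd was called lower over the whole section (log2 -0.48, SE 0.06, adjusted p = 0.000404) and so was Gabra3 (log2 -0.28, adjusted p = 0.0421), when 4.28% of all genes were called lower. In areas 7 member tests were then called (1.58% of all tests), 6 of them Gabrd lower: medial habenula (log2 -1.51, adjusted p = 0.00175), Calb2 and Igkc spots (-1.07, 0.0377), reticular thalamus (-0.86, 0.0172), Fezf2 and Myl4 spots (-0.75, 0.00877), layer 4 (-0.52, 0.00876) and relay thalamus (-0.47, 0.000379). Gabra5 was called higher in the dentate gyrus granule layer (0.47, 0.0172). Without HF replicate 2, Gabrd stood at 0.04 over the whole section and 0.04 in the relay thalamus, and 2 other calls arose in the relay thalamus, Gabra2 (0.43, adjusted p = 0.00994) and Gabra5 (0.33, adjusted p = 0.0302), with 0.864% of all tests called. A single section here stands for its diet and is assumed to vary like the others.

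**Figure D5:**
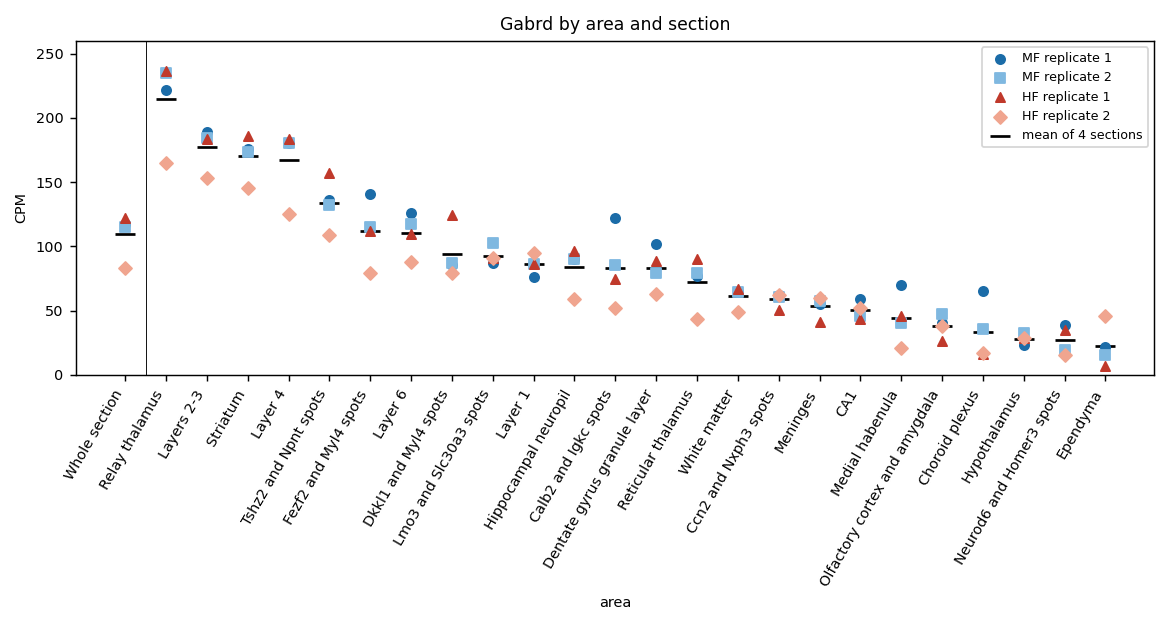
Gabrd level in CPM over the whole section (left of the line) and in 24 of the 25 areas, 1 point per section, with the mean of the 4 sections as a bar. HF replicate 2 sits lowest over the whole section (83.2 CPM) and in most areas, while HF replicate 1 (122 CPM) lies with the MF sections (118 and 115 CPM).

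Whether the diet difference varied over areas was tested with 1 joint test per gene. No member was called among 12633 genes, of which 0.0871% were (677 at an unadjusted p under 0.05, 0 members). Gabra5 had the smallest p of the 7 (unadjusted 0.0745, adjusted 0.985). Its highest difference was in olfactory cortex and amygdala (log2 0.43, with 129 and 163 CPM in MF, 217 and 176 CPM in HF). Its lowest was in hypothalamus (log2 -0.24, with 104 and 98.6 CPM in MF, 90.7 and 83.4 CPM in HF). The groups did not overlap in these 2 areas, which were picked as the ends, nor in 34.8% of the comparisons of all genes in areas. Gabrd was called without HF replicate 1 (adjusted p = 0.0167), when 3.98% of all genes were, and with genes of very low count kept (adjusted p = 0.0238), when 1.9% were. Of the other GABA genes, none was called over the whole section. Within areas their lists held 133, 373, 178, 50, 69 and 50 tests and 1 call, when 0.0824% of all tests of a gene in an area were called. The call was Gad2, a GABA-synthesising enzyme, in the choroid plexus, at 121 and 79.0 CPM in MF and 54.7 and 28.7 CPM in HF (log2 -1.32, SE 0.32, adjusted p = 0.0491). It rested on 12 to 69 UMIs, in the area where most marker lists lay below 0 as given above. That call was lost without MF replicate 1, without HF replicate 2 and under 3 other alternatives, with adjusted p from 0.0653 to 1.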

How the data were processed

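Visium probe libraries of 4 brain sections were processed by the authors with Space Ranger (version 2.0.0 per the file headers) against mm10, with Seurat also named in their processing notes. The deposited matrices hold raw UMI counts per gene and spot; the deposited enrichment tables hold Moran's I, a score of spatial structure, and the position tables hold array rows and columns (other values, as deposited by the authors). Spots under 500 UMIs or 250 genes were left out.

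Spots were clustered on 2000 variable genes scaled within each section (30 principal components, 20 neighbours, Leiden resolution 2, leidenalg 0.10.2), with 50 GABA, mitochondrial and sex-linked genes left out. UMIs were summed per section and area and tested with edgeR 4.0.16 (quasi-likelihood, TMM, filterByExpr, R 4.3.3), with Benjamini-Hochberg adjustment over all genes tested; a call needs an adjusted p under 0.05 and 1.2-fold. Spots are not replicates, so the study's test over spots was not used. Log2 ratios of UMIs used a pseudocount of 0.5, and pattern likeness log2(CPM + 1) in genes of at least 10 CPM in 1 area.

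All 7 members were named in every comparison, the GABA genes called between the diets, and for each area that a member leads the 2 GABA genes with the largest log2 ratio. Results of some genes and of 1 area are not reported here. Members and lists were chosen with earlier results of these data known. Alternatives were DESeq2 1.42.0, library size alone, no count filter beyond 1 UMI, spots thinned to 5000 UMIs, Leiden resolutions 1 and 3, the replicate block and each section left out. On simulated 2-fold changes of 200 genes, edgeR found 70.5% over the whole section, 51% in the relay thalamus, 20.5% in CA1 between diets and 76% in CA1 against the other areas, and 1% for the area by diet test.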

Additional observations from a re-analysis of the deposited data

Results flagged for a closer look

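Of the 36 GABA genes tested outside the 7 subunits, 2 had a diet difference that varied over areas by the joint test of area by diet in edgeR, when 0.0871% of all 12633 genes did. For Gad2, a GABA-synthesising enzyme, the adjusted p was 0.0127. HF minus MF was lowest in the choroid plexus, at -1.32 on the log2 scale, with 121 and 79.0 CPM in MF and 54.7 and 28.7 CPM in HF. In the same 10 to 13 spots a section, HF minus MF was -0.51 for the summed excitatory markers, -0.50 for interneurons, -0.50 for microglia, -0.39 for oligodendrocytes, -0.37 for astrocytes and 0.12 for vessels, and their part in the difference was not tested. The call was lost without MF replicate 1 (adjusted p = 1), without MF replicate 2 (0.265) and with spots thinned to 5000 UMIs (1).

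For Dbi, whose protein binds the benzodiazepine site of GABA-A receptors, the adjusted p was 0.0461. HF minus MF was 0.80 in ependyma, with 1803 and 1310 CPM in MF and 1715 and 3654 CPM in HF, so that 1 HF section set the value, and -0.37 in the reticular thalamus, with 643 and 744 CPM in MF and 487 and 583 CPM in HF. In ependyma HF minus MF was -0.72 for the summed interneuron markers, 0.15 for astrocytes, 0.13 for vessels, 0.08 for oligodendrocytes, 0.03 for microglia and -0.01 for excitatory markers. HF replicate 2 held 15 ependyma spots, 12 with finer clusters. MF replicates 1 and 2 and HF replicate 1 held 23, 32 and 30, and 8, 5 and 8 with finer clusters. The part of these markers and spots in the Dbi value was not tested. The call was lost without MF replicate 1 (adjusted p = 1), without MF replicate 2 (1), without HF replicate 2 (0.800), with library size alone (0.0584) and at Leiden resolutions 1 (0.0762) and 3 (0.869).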

How the results depend on the processing

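The number of sections, 2 per diet, limits every HF against MF result, and depth limits the low genes: the choroid plexus held 10 to 13 spots a section, and Gabra3 as few as 0 UMIs there. Of the single values under alternatives, 536 kept their direction and their side of the threshold, 13 newly passed it, 11 no longer did and 8 turned direction.

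The count of members called over the whole section was 0 to 2 with each section left out, and within areas 0 to 7, with 1 under library size alone. The members' area calls (114) ranged from 91 to 116. With each section left out, the log2 differences of the whole section ranged from -0.0869 to 0.213 for Gabra2, -0.277 to -0.0173 for Gabra3, 0.0217 to 0.200 for Gabra5, 0.0348 to 0.136 for Gabrb1, -0.0853 to 0.125 for Gabra4, -0.0965 to 0.149 for Gabrb2 and -0.482 to 0.0421 for Gabrd. Gabrd ranged from -0.523 to 0.0361 in layer 4, -0.472 to 0.0410 in the relay thalamus and -0.856 to 0.197 in the reticular thalamus. The values of Gabra2, Gabra4 and Gabrb2 turned without HF replicate 1 (Gabra4 also without MF replicate 1, at -0.0037), and those of Gabrd without HF replicate 2. For area by diet, 1 member (Gabrd) was called with no filter beyond 1 UMI, and 0 to 1 with sections left out. The Gabra3 to Gabra2 ratio difference was 3.11 in thinned spots.

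Over all genes, calls for the whole section (0) were 22 by DESeq2, 5 with no filter and 0 to 1166 with sections left out; within areas (217) they were 64 by DESeq2, 1069 with no filter, 120 in thinned spots and 159 to 4385 with sections left out; against the other areas (94429) they were 54264 in thinned spots; and for area by diet (11) they were 361 with no filter and 0 to 508 with sections left out. The causes were not tested.

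The replicate numbers did not pair the sections (r = -0.165 over 14971 genes between the replicate differences of MF and HF). With the replicate block 0 members were called, and 388 tests of all genes within areas. With the crossed pairing, chosen after seeing the data, 0 members, 11 genes over the whole section and 666 tests within areas were called.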
